A study of Mus musculus with 2 samples.

Results

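Heat shock proteins and folding chaperones were compared between an early and a late culture of mouse expandable hepatoblasts. They were taken by name, as the 167 gene probes of 41174 on the array whose gene name begins with Hsp (other than Hspg) or Dnaj, begins with Pdia or Cct followed by a number, or is Calr or Canx. These probes named 90 genes, of which 89 had a usable probe, out of 20054 named genes with one. Expandable hepatoblasts are liver progenitor cells, here of strain C57BL/6. Both cultures received the same medium, with EGF (epidermal growth factor), CHIR99021 (a GSK3 inhibitor), E-616452 (a TGF-beta receptor inhibitor), LPA (lysophosphatidic acid) and S1P (sphingosine 1-phosphate), on Matrigel or laminin. The labels do not say which coating each culture had, so coating may differ between the passages. RNA of passage 5 cells and RNA of passage 20 cells was labelled with Cy3 and hybridised to 1 array each, and the labels place the passages in independent experiments. The labels do not give the sex of the cells, and sex-linked transcripts differed between the arrays, as given below. The effects of passage, of experiment and of any difference in coating, sex or origin of the cells cannot be told apart. With 1 array per passage no difference has a replicate check or a test.

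Molecular chaperones bind unfolded or partly folded proteins and keep them from aggregating while they fold. The HSP70 proteins do this in cycles of ATP hydrolysis that J domain proteins start and nucleotide exchange factors end, and HSP90 proteins and the ring-shaped chaperonins act on narrower sets of clients. Heat shock factors raise the cytosolic chaperones under protein damage, while the unfolded protein response raises those of the endoplasmic reticulum, the compartment where a liver cell folds the proteins it secretes.

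Of 14 listed hepatoblast markers 11 were measured, meaning that at least 1 array had them well above background, and 10 of them were so on both, among them Afp, Hnf4a, Foxa2, Krt8 and Krt18. The listed hepatoblast markers Dlk1, Foxa1 and Foxa3 were well above background on neither array. Cdh1 was 2.89-fold higher at passage 20, Epcam 2.24-fold lower and Gpc3, seen at passage 5 only, at least 9.49-fold lower. Of 7 hepatocyte markers 1 was measured, Apoa1 at passage 5 only, and Alb and Ttr were below the background threshold at both passages. Of 5 endothelial markers and of 3 erythroid markers on the array 0 were measured, against 2 of 8 fibroblast and stellate, 3 of 4 mesothelial and 2 of 5 leukocyte markers. The summed raw signal was 31395 and 21725 (passage 5 and passage 20) over the fibroblast list, 172466 and 188378 over the mesothelial list and 682 and 607 over the leukocyte list. These sums are unscaled, and the 75th percentile of signal over gene probes was 1085 at passage 5 and 853 at passage 20. Nearly all of the fibroblast sum came from Acta2 and nearly all of the mesothelial sum from Msln. Col1a1, Col1a2, Col3a1, Pdgfrb and Ptprc did not reach the background threshold at either passage. Of the measured fibroblast markers Dcn was at least 15.9-fold lower at passage 20 and Acta2 differed by -0.098. Of the measured mesothelial markers Msln, the 1 seen on both arrays, was 1.40-fold higher, and Upk3b and Wt1 were at least 4.34-fold and 2.02-fold lower. Sex-linked transcripts also differed, with Xist 36.5-fold higher and Ddx3y, on the Y chromosome, at least 21.4-fold lower at passage 20. The part of these differences in the chaperone values was not tested. In bulk RNA, fewer cells of a type and less RNA per cell cannot be told apart. Of all gene probes, 45.5% at passage 5 and 46.1% at passage 20 were well above background.

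Nearly all chaperone genes differed by less than 2-fold between the arrays. Of the 89 genes, 75 were measured, 73 of them on both arrays, and 14 were well above background on neither. Levels are given as log2 signal after subtracting the array's own 75th percentile, taken over all gene probes, and differences are passage 20 minus passage 5, from the brightest measured probe of a gene. At the 2-fold threshold 0 of the 75 were higher at passage 20, against 3.27% of all 11811 measured genes, and 1 was lower, the J protein gene Dnajc7, against 5.73%. At 1.5-fold 5 were higher (Hspbap1, Dnajc9, Dnajc28, Calr and Dnajc24) and 3 lower (Dnajc7, Dnajb2 and Hspa1b), against 10.4% and 11.8%. At 4-fold 0 were higher and 0 lower, against 0.500% and 1.36%. The balance of the calls over all genes shifted with the scaling, with more lower than higher calls each time: 386 were higher and 677 lower here, 231 and 971 when the arrays were scaled to external spike-in RNA, 268 and 844 after cyclic loess and 194 and 1128 after centring on the median. Without the filter on dim probes it turned, to 1168 higher and 1037 lower. Median centring moved the median difference of all measured genes from 0.069 to -0.24 and spike-in scaling moved it to -0.15, so the sign of a small difference is not settled. Over 12 ways of processing, the one reported included, 11 of the 75 genes stayed above 0, 24 stayed below 0 and 40 took either sign. Each alternative that changed the background correction or the scaling lowered the median of all measured genes. A value below 0 as reported therefore tends to stay below 0, so staying below 0 says less than staying above 0. The median difference of the chaperone genes was 0.057, beside 0.069 over all measured genes, and 47 of the 75 lay above 0, beside 57.3% of all; the number above 0 fell to 12 with median centring. Within 1.5-fold lay 67 of the 75 (89.3%), beside 77.8% of all measured genes.

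Brighter genes differed less between the arrays, and many chaperone genes are bright. Of the genes whose mean level exceeded the 75th percentile, 59 of 64 chaperone genes (92.2%) and 6494 of 7562 named genes (85.9%) were within 1.5-fold. At 2-fold the shares were closer, with 63 of the 64 (98.4%) and 7242 of the 7562 (95.8%) within it. The median size of a difference, in either direction, was 0.18 for the former and 0.23 for the latter. The files give technical error only. Dnajc11, a J protein of mitochondria, had 10 spots of 1 probe, with 0.29 ± 0.052 (SD, n = 10 spots) at passage 5 and 0.33 ± 0.064 (SD, n = 10 spots) at passage 20. Its difference of 0.048 was smaller than the SD of its single spots on each array. Means of 10 spots vary less than single spots, so this does not place the difference within technical error. Over 108 such probes on the array the median SD of a difference between single spots was 0.081. This spot error holds no variation of culture, labelling or scaling, so a difference larger than it need not be one between the passages. Different probes of 1 chaperone gene, where several were above background on both arrays, lay a median of 0.25 apart.

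**Figure D1:**
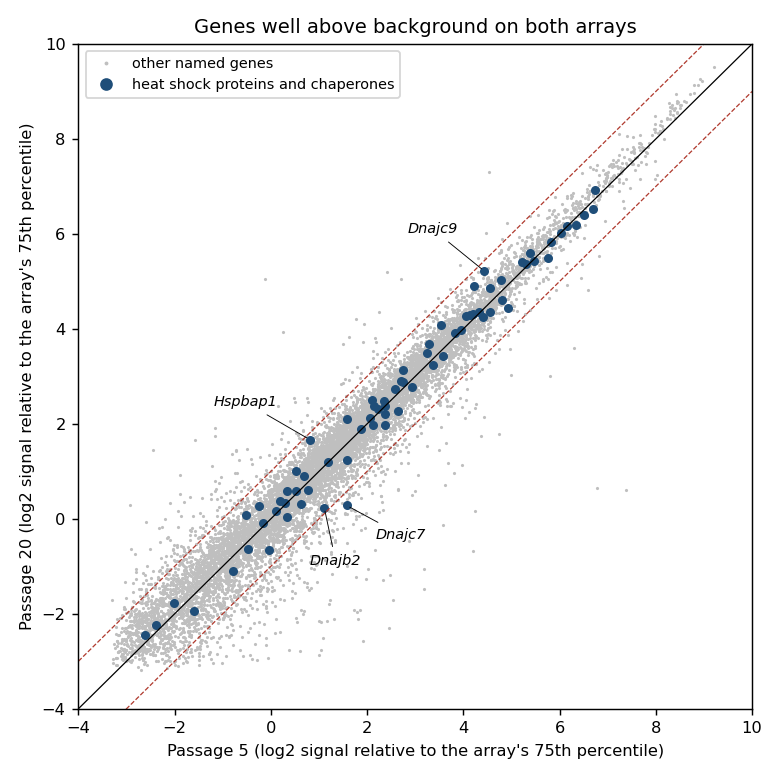
Log2 signal relative to each array's 75th percentile at passage 5 (horizontal axis) and passage 20 (vertical axis) for named genes well above background on both arrays, with 73 heat shock protein and chaperone genes in blue and other genes in grey. The solid line marks equal values and the dashed lines 2-fold differences; Dnajc7 is the 1 blue point outside them.

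**Figure D2:**
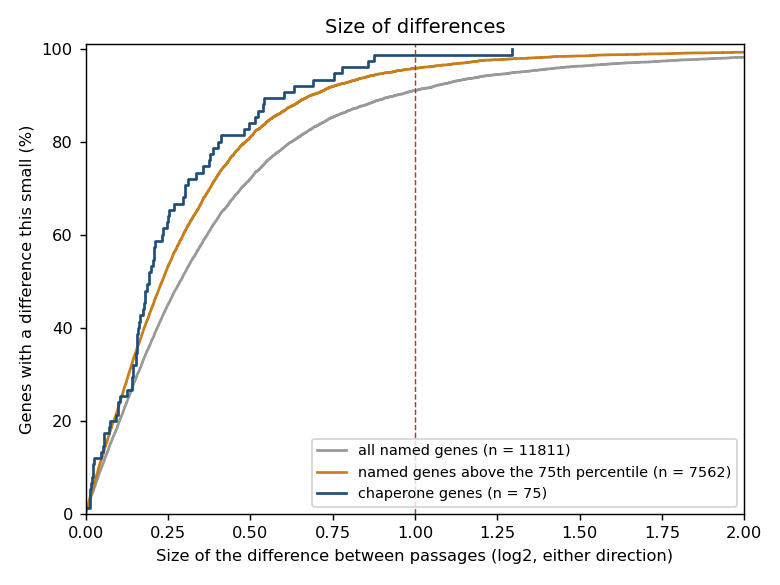
Share of genes (vertical axis, percent) whose difference between passages was no larger than the value on the horizontal axis (log2, either direction), for all 11811 measured named genes, the 7562 of them with a mean level above the 75th percentile, and the 75 measured chaperone genes. The chaperone curve stands at 98.7% at the dashed 2-fold line, and genes beyond 2 on the horizontal axis are not drawn.

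The HSP70 and HSP110 genes encode the central ATP-driven chaperones, and 11 of 14 were measured. Their differences ran from -0.63 to 0.54 with a median of 0.019. Hspa8, the constitutive cytosolic HSP70, was at 6.73 at passage 5 and 6.93 at passage 20, a difference of 0.20, although its other probe gave -0.81. The stress-inducible gene Hspa1a was at 2.12 at passage 5 and 1.97 at passage 20. Its 2 probes, which overlap in the genome, differed by -0.17 to -0.16. Its near-identical copy Hspa1b was at -0.030 at passage 5 and -0.66 at passage 20, 1.55-fold lower. Both inducible genes were lower at passage 20 under all 12 settings tried, by more than the spot error. Staying below 0 says little, because the changes of scaling lowered the median of all measured genes. The Hspa1a difference was also smaller than the median of 0.25 between probes of 1 chaperone gene. Signal of such close copies can be shared between their probes. Hsph1, an HSP110 protein that releases ADP from HSP70, was at 3.54 at passage 5 and 4.08 at passage 20, 1.45-fold higher, and stayed above 0 under all 12 settings.

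The other measured members of this class were within 1.5-fold by their brightest probes. Hspa4, also of the HSP110 type, was at 3.38 at passage 5 and 3.24 at passage 20 by its brightest probe, while another probe was 2.29-fold lower, as described below. The relative Hspa4l, with 4 measured probes, was at 2.36 at passage 5 and 2.38 at passage 20, and its probes spanned -0.18 to 0.12, on both sides of 0. Hspa14, a ribosome-associated HSP70, was at 4.55 at passage 5 and 4.85 at passage 20. Hspa2, best known from testis, was at 0.69 at passage 5 and 0.89 at passage 20, with both of its probes above 0 (0.088 to 0.21). Hspa9, the mitochondrial HSP70, was at 4.56 at passage 5 and 4.35 at passage 20, but its probes gave -0.21 to 0.25, so its sign was not settled. Hspa13 was at 1.19 at passage 5 and 1.20 at passage 20, with its probes from -0.087 to 0.014. Hspa1l, Hspa12a and Hspa12b were well above background on neither array.

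J domain proteins stimulate HSP70 and choose its clients. Of 44 J protein genes with a usable probe, 38 were measured, 25 of them above 0, with a median difference of 0.083. Dnajc7, a protein with tetratricopeptide repeats that binds both HSP70 and HSP90, had a signal of 3234 at passage 5 and 1037 at passage 20. On the scaled log2 axis this was 1.58 at passage 5 and 0.28 at passage 20, 2.45-fold lower at passage 20. It has a single probe (chromosome 11, 100444389 to 100444448 in build mm9), so no other probe bears on the value, and it stayed at least 2-fold lower under all 12 settings, from -1.61 to -1.22. Dnajb2, a J protein with ubiquitin-interacting motifs, also has 1 probe and was at 1.11 at passage 5 and 0.23 at passage 20, 1.84-fold lower; it passed 2-fold under spike-in scaling and under median centring.

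In the other direction, Dnajc9, a J protein that binds histones H3 and H4, was at 4.44 at passage 5 and 5.22 at passage 20, 1.72-fold higher, and its probes gave 0.78 to 1.00, the upper one at 2-fold. Dnajc24, a factor of diphthamide synthesis on elongation factor EEF2, was at -0.52 at passage 5 and 0.078 at passage 20, 1.52-fold higher. Both stayed above 0 under all 12 settings. Dnajc28 was well above background at passage 20 only and was at least 1.69-fold higher by that bound, while its other probes were above background on neither array.

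The subfamily A genes, Dnajb1 and Dnajb4 were within 1.5-fold by their brightest probes. Dnajb1, the classical inducible HSP40, was at 4.21 at passage 5 and 4.31 at passage 20, with both probes close (0.098 to 0.13). Dnaja1 was at 4.14 at passage 5 and 4.29 at passage 20, with its probes from -0.038 to 0.15. Dnaja2, a second cytosolic partner of Hspa8, was at 2.59 at passage 5 and 2.74 at passage 20. Dnaja3, the mitochondrial form, was at 2.37 at passage 5 and 2.20 at passage 20, but its probes gave -0.16 to 0.17. Dnaja4 was at -2.01 at passage 5 and -1.78 at passage 20. The 4 genes of subfamily A differed by -0.16 to 0.23, and the subfamily's median took either sign over the settings. Dnajb4 was at -0.25 at passage 5 and 0.27 at passage 20 by its brightest probe, but its other measured probe disagreed, as described below. Subfamily B had 9 of 12 genes measured (median 0.093) and subfamily C 25 of 28 (median 0.057); both medians took either sign over the settings.

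The 3 HSP90 genes were all within 1.5-fold. Hsp90aa1, the inducible cytosolic form, was at 6.16 at passage 5 and 6.16 at passage 20, a difference of 0.0044. Hsp90ab1, the constitutive cytosolic form, was at 6.35 at passage 5 and 6.19 at passage 20, with both probes close (-0.18 to -0.16), and it stayed below 0 under all 12 settings. Hsp90b1, the form of the endoplasmic reticulum, was at 5.81 at passage 5 and 5.83 at passage 20, with probe differences of 0.017 to 0.045. The differences of Hsp90aa1 and Hsp90b1 were smaller than the spot error of 0.081, and the class median of 0.0044 took either sign over the settings.

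Small heat shock proteins hold unfolding proteins without using ATP, and 5 of 8 genes were measured. Hspb1 (HSP27), an actin-associated stress protein, was at 5.77 at passage 5 and 5.50 at passage 20, 1.21-fold lower, and below 0 under all 12 settings. Hspb8, which works with the co-chaperone BAG3 in selective autophagy, was at 1.59 at passage 5 and 2.11 at passage 20, 1.43-fold higher, and above 0 under all 12. The gene Bag3, which the name rule leaves out, differed in the other direction, by -0.69 (probes from -0.74 to -0.69). Hspb6 (HSP20), a small HSP of muscle, was above background at passage 5 only, at -2.63, and was at least 1.46-fold lower at passage 20 by that bound. Hspb11, now counted among the intraflagellar transport proteins, differed by 0.022. The germ cell gene Hspb9 was at -2.39 at passage 5 and -2.23 at passage 20. The muscle and heart genes Hspb2, Hspb3 and Hspb7 were undetected at both passages.

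The chaperonins enclose proteins in a ring. Hspd1 (HSP60), the mitochondrial ring, was at 6.50 at passage 5 and 6.40 at passage 20, and its lid Hspe1 (HSP10) was at 4.78 at passage 5 and 5.03 at passage 20. Hspd1 differed by -0.099 (probes from -0.47 to -0.099) and Hspe1 by 0.25. In RefSeq's promoter table of build GRCm38.p6, which held 74 of the 89 genes, these neighbours share 1 heat shock element between their start sites, read here as 3 units of GAA and TTC in turn with 2 bases between them (GAANNTTCNNGAA or TTCNNGAANNTTC), either of which reads as the other on the opposite strand. It was searched in the 250 bases before each start. The sequence is shown on each gene's own strand because 1 element faces both genes, at chr1:55088059-55088076, and beside it is the element of Dnajb6, a J protein against aggregation, at chr5:29735852-29735864 on the plus strand. Capitals mark the GAA and TTC units, and in Hspd1 and Hspe1 overlapping matches give 4 units in a row.
Hspd1: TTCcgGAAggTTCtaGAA
Hspe1: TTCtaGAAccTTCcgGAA
Dnajb6: GAAtcTTCcgGAA
These were 3 of the 74 members in the table, against 0.452% of 17492 protein-coding genes in the table. Dnajb6 was at 2.14 at passage 5 and 2.38 at passage 20, with 3 probes from 0.14 to 0.30. The 3 genes with the element thus differed by -0.099, 0.24 and 0.25. Of the lists of partner genes described below, only Sec62 held a match, and it differed by -0.45. Only exact matches within the 250 bases were read, so a gene without a match may still have an element. The 8 members placed in mitochondria (Hspa9, Hspd1, Hspe1, Dnaja3, Dnajc11, Dnajc15, Dnajc19 and Dnajc30) had a median of 0.076, down to -0.23 over the settings, and all lay within 1.5-fold.

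CCT (TRiC) is the cytosolic ring that folds actin and tubulin. Of 8 measured CCT genes 6 lay below 0, 4 of them (Cct2, Cct3, Cct4 and Cct6a) by more than the spot error of 0.081, and 2 lay above 0, beside 57.3% of all measured genes. All 8 were within 1.5-fold, beside 77.8% of all measured genes and 85.9% of those above the 75th percentile, as these 8 were. The class median was -0.091 and ran from -0.40 to -0.026 over the 12 settings. It stayed below 0 under all of them, which says little because the changes of scaling lowered the median of all measured genes. Cct3 was at 2.38 at passage 5 and 1.97 at passage 20 and Cct6a at 0.63 at passage 5 and 0.32 at passage 20, the lowest differences of the class at -0.41 and -0.31. Cct2 was at 6.70 at passage 5 and 6.53 at passage 20 and Cct4 at 4.40 at passage 5 and 4.24 at passage 20, each below 0 by both of its probes. Cct5, Cct7 and Cct8 differed by -0.012, -0.026 and 0.012, all smaller than the spot error. Cct6b, the testis form of subunit 6, differed by 0.19, and the testis-type gene Cct8l1 was well above background on neither array. The gene of the remaining subunit, Tcp1, which the name rule leaves out, differed by -0.88 by its brightest probe and by 0.17 by its other probe.

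In the endoplasmic reticulum, chaperones fold secreted and membrane proteins. Of 15 members placed there, 14 were measured and 11 lay above 0. Their median difference was 0.12, which turned negative under some scalings (down to -0.19). Other members, Dnajb12 and Dnajb14 among them, were left without a compartment, so these counts hold for the placed genes only. Hspa5 (BiP), the HSP70 of this compartment and the usual readout of the unfolded protein response, was at 5.38 at passage 5 and 5.59 at passage 20, a difference of 0.21. Calr (calreticulin), a lectin that holds glycoproteins while they fold, was at 4.22 at passage 5 and 4.91 at passage 20, 1.61-fold higher, but its other probe gave 0.068. The membrane-bound lectin Canx (calnexin) was at 5.31 at passage 5 and 5.36 at passage 20, with 3 probes from -0.020 to 0.29. Neither lectin passed 2-fold.

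Protein disulfide isomerases form and reshuffle disulfide bonds, and 4 of 5 genes were measured. Pdia3 (ERp57), the isomerase that works with the lectins, was at 4.93 at passage 5 and 4.44 at passage 20, 1.41-fold lower, and was below 0 under all 12 settings. Pdia4 was at 0.34 at passage 5 and 0.59 at passage 20 and Pdia5 at 0.18 at passage 5 and 0.37 at passage 20. Pdia6, an isomerase of the same compartment, was at 5.22 at passage 5 and 5.40 at passage 20 by its brightest probe. The pancreatic isomerase Pdia2 was undetected at both passages. Pdia4, Pdia5 and Pdia6 differed by 0.25, 0.19 and 0.18, and all 3 took either sign over the settings.

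The J proteins of this compartment did not differ in 1 direction. Dnajc3 (P58IPK), a BiP partner that also inhibits the kinase PERK, was at 2.76 at passage 5 and 3.13 at passage 20, and its 4 probes agreed, from 0.38 to 0.52. Dnajb9 (ERdj4), another target of the unfolded protein response, was at 1.59 at passage 5 and 1.23 at passage 20, and its 3 probes agreed in the other direction, from -0.41 to -0.36. Dnajb11 (ERdj3) was at 3.82 at passage 5 and 3.91 at passage 20. Dnajc10 (ERdj5), a reductase of disulfide bonds, was at 3.58 at passage 5 and 3.44 at passage 20, with probes from -0.27 to 0.64. Dnajc3 stayed above 0 and Dnajb9 below 0 under all 12 settings.

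The endoplasmic reticulum stress element was read as CCAAT and CCACG with 9 bases between them (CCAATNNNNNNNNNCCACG), on both strands of the same 250 bases. It occurred in 6 of the 14 members placed in this compartment that the promoter table holds, and in 0.154% of the 17492 protein-coding genes. Over all members in the promoter table it occurred in 6 of 74 (8.11%). The 6 are shown because they share this element. Capitals mark the CCAAT and CCACG parts (CGTGG and ATTGG where the element lies on the other strand), and each run is read on the gene's strand. In GRCm38.p6 they lie at chr2:34771970-34772089 (Hspa5, plus strand), chr10:86705533-86705656 (Hsp90b1, minus), chr8:84847025-84847144 (Calr, minus), chr11:50325800-50325818 (Canx, minus), chr12:17266440-17266559 (Pdia6, plus) and chr14:118937776-118937895 (Dnajc3, plus).
Hspa5: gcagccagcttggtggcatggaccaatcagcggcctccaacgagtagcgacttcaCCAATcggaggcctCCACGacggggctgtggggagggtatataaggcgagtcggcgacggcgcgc
Hsp90b1: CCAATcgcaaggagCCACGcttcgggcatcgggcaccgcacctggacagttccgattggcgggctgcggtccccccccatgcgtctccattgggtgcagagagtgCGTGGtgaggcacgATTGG
Calr: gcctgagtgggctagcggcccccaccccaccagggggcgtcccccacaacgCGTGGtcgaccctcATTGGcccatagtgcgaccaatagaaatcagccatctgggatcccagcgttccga
Canx: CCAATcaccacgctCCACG
Pdia6: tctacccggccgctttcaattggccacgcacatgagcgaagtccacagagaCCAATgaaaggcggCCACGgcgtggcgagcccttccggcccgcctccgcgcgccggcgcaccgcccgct
Dnajc3: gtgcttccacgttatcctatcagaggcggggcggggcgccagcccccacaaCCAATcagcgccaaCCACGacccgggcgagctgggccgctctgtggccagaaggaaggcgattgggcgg
Hsp90b1 held 2 matches and each of the others 1. The 6 genes differed by 0.017 (Hsp90b1), 0.052 (Canx), 0.18 (Pdia6), 0.21 (Hspa5), 0.38 (Dnajc3) and 0.69 (Calr). Their median was 0.19, beside 0.12 for all measured members placed in the compartment, which include these 6. Over the settings only Calr and Dnajc3 of the 6 stayed above 0, and all 6 were within 2-fold. A match to these letters is a description and does not show that a factor binds there. Nor does the lack of a match show that a gene has no such element.

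**Figure D3:**
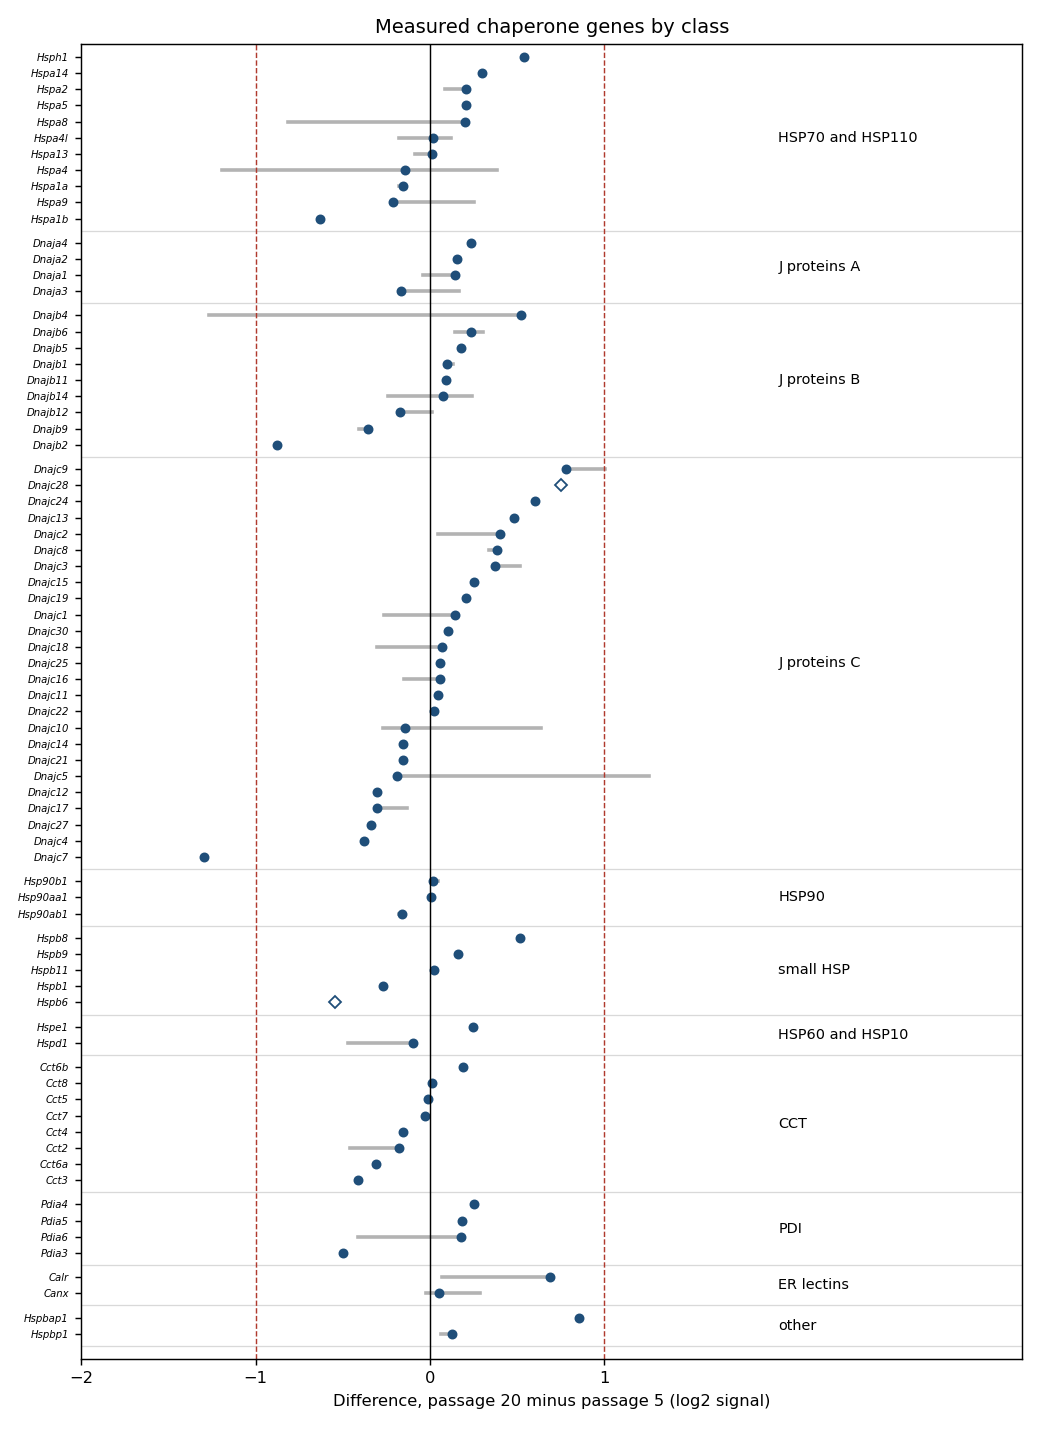
Difference between passages (passage 20 minus passage 5, log2 signal) for each of the 75 measured chaperone genes, grouped by class. Points are the brightest measured probe, open diamonds the 2 genes with a bound (Dnajc28 and Hspb6), grey bars the range over probes above background on both arrays, and dashed lines 2-fold; Dnajc7 alone has its point beyond a dashed line, and bars of Hspa4, Dnajb4, Dnajc5 and Dnajc9 reach past one.

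Probes of the same gene gave different answers for 4 members. Among 34 chaperone genes with several probes above background on both arrays, 4 (11.8%) had probes at least 2-fold apart, against 8.86% of 4300 such genes on the array, and 4 (11.8%) had at least 1 probe past 2-fold, against 11.2%. In 17 of the 34 the probes lay on both sides of 0, beside 1547 of the 4300. Hspa4 was at 2.44 at passage 5 and 1.24 at passage 20 by the probe nearest its 3′ end (chromosome 11, 53073347 to 53073406 in mm9), 2.29-fold lower. The next probe, 2576 bases upstream in the genome, was at 3.38 at passage 5 and 3.24 at passage 20. The probe farthest upstream, 20796 bases away, was at 1.74 at passage 5 and 2.12 at passage 20, a difference of 0.39. A probe between these, above background at passage 5 only, gave a bound of -0.41. The 3 probes seen on both arrays thus went from below 0 at the 3′ end to above 0 upstream.

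For Hspa8, the brightest probe (chromosome 9, 40612674 to 40612733, mm9 like all probe positions here) gave 0.20, while a probe 1532 bases upstream was at 5.23 at passage 5 and 4.42 at passage 20, a difference of -0.81. For Dnajb4, the 3′ probe (chromosome 3, 151847247 to 151847306) gave 0.52, while a probe 2217 bases upstream was at -1.01 at passage 5 and -2.28 at passage 20, 2.41-fold lower. For Dnajc5, the cysteine string protein of vesicles, a probe 3567 bases upstream of the 3′ one was at -0.81 at passage 5 and 0.44 at passage 20, 2.39-fold higher, whereas the other probes gave -0.19 and 0.092. In Hspa8 and Dnajb4 the upstream probe was the lower one, and in Hspa4 and Dnajc5 the higher one. Pdia6 also had a probe on a separate cDNA clone (chromosome 12, 17289144 to 17289203) that was above background at passage 20 only and at least 2.28-fold higher. Its 3 RefSeq probes ranged from -0.42 to 0.18. The files do not say which exon or untranslated region a probe lies in, and differences in transcript form were not tested.

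**Figure D4:**
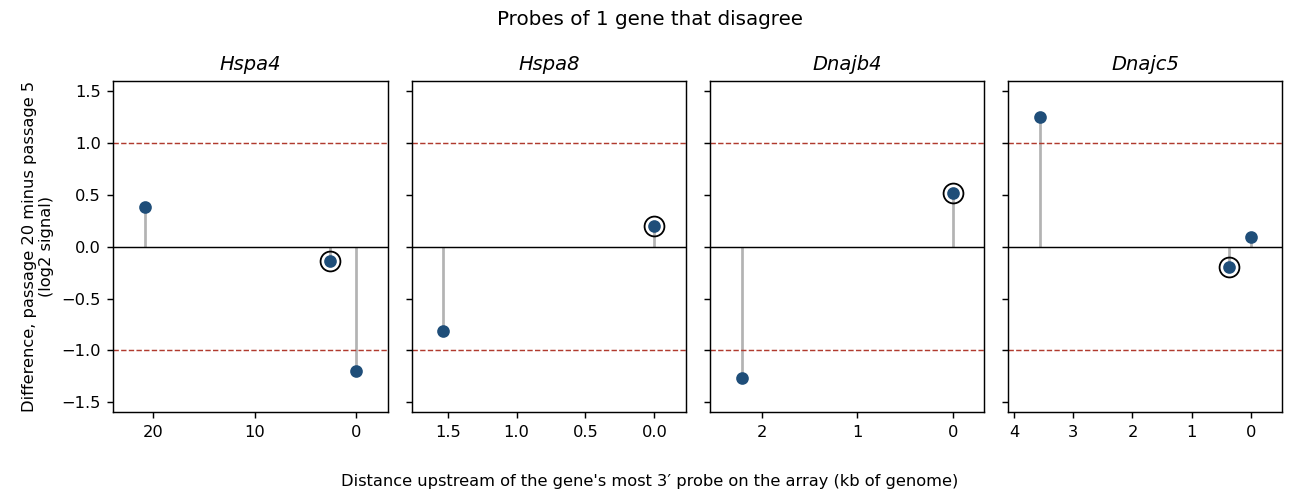
Difference between passages (log2 signal, vertical axis) for each probe above background on both arrays in Hspa4, Hspa8, Dnajb4 and Dnajc5, placed by its distance upstream of the gene's most 3′ probe on the array (horizontal axis, kb of genome, introns included). Circles mark the brightest probe, which stands for the gene elsewhere, and dashed lines mark 2-fold; in each gene at least 1 probe lies on the other side of 0 from the brightest.

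Genes that work with the chaperones were also taken by function rather than by name. Their calls are read beside the 3.27% higher and 5.73% lower of all measured genes, of which 91.0% were within 2-fold. Of 43 genes of heat shock factors, cytosolic co-chaperones and prefoldin, 40 were measured, 1 was at least 2-fold higher and 0 lower, with a median of 0.098. Cdc37l1, a relative of the kinase co-chaperone CDC37, was the higher one at 1.02 (probes from 0.57). The prefoldin subunit Pfdn2 differed by -0.97, and Nudcd3 by -0.95 with another probe at 0.83. Of 13 mitochondrial partners all were measured and within 2-fold (median 0.057); the mitochondrial HSP90 gene Trap1 was the lowest at -0.73.

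Of 56 further genes of folding and stress signalling in the endoplasmic reticulum, 53 were measured, 1 was at least 2-fold higher and 3 lower, with a median of 0.069. Fkbp2, a prolyl isomerase, was 3.74-fold lower (probes -1.93 and -1.90). Serpinh1 (HSP47), the collagen chaperone, was 2.78-fold lower, at 1.67 at passage 5 and 0.19 at passage 20. Atf6b, a membrane-bound stress transcription factor, was 2.07-fold lower, and the cyclophilin gene Ppic 2.08-fold higher. Within 2-fold lay 49 of the 53 (92.5%). The stress element also stood before 4 of the 44 genes of this list in the promoter table (9.09%). The 3 measured ones, Creld2, Ero1b and Syvn1, differed by 0.21, 0.38 and -0.039.

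**Figure D5:**
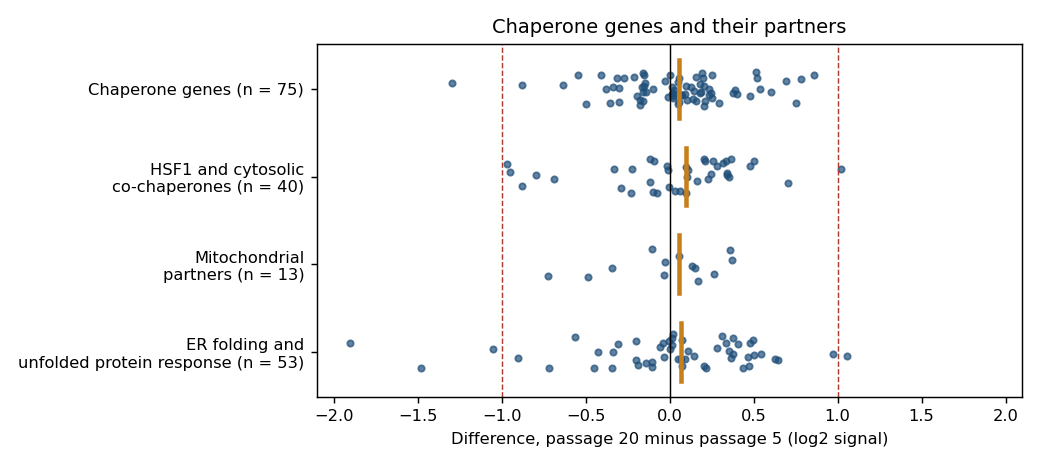
Difference between passages (passage 20 minus passage 5, log2 signal) for the 75 measured chaperone genes and for the measured genes of 3 lists of their partners, 1 point per gene with random vertical scatter. Orange bars are the medians, 0.057, 0.098, 0.057 and 0.069 from top to bottom, and dashed lines mark 2-fold.

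Among members that are not chaperones themselves, Hspbap1, an HSP27-binding protein with a JmjC domain, was at 0.81 at passage 5 and 1.67 at passage 20. It was 1.81-fold higher (0.86) by a single probe, and above 0 under all 12 settings. That was the most by brightest probe among members seen on both arrays. Dnajc9 was at 0.78 by its brightest probe and at 1.00 by its other probe. Hspbp1, a nucleotide exchange factor of HSP70, was at 2.36 at passage 5 and 2.49 at passage 20, a difference of 0.13.

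Members outside these accounts were small in difference or undetected. The 14 genes with no probe above background were Cct8l1, Dnajb7, Dnajb8, Dnajb13, Dnajc5b, Dnajc5g, Dnajc6, Hspa1l, Hspa12a, Hspa12b, Hspb2, Hspb3, Hspb7 and Pdia2. The 20 measured members not yet given a value of their own ran from -0.38 to 0.48. They were Dnajb5, Dnajb12, Dnajb14, Dnajc1, Dnajc2, Dnajc4, Dnajc8, Dnajc12, Dnajc13, Dnajc14, Dnajc15, Dnajc16, Dnajc17, Dnajc18, Dnajc19, Dnajc21, Dnajc22, Dnajc25, Dnajc27 and Dnajc30, the first 3 of subfamily B and the others of subfamily C. Dnajb3 had no usable spot: its single spot had a signal of 72753 at passage 5 and 22.0 at passage 20, but the scanner software marked the first as non-uniform, with a pixel SD of 79377 around a mean of 72293. Kept in, that spot would have been the largest difference of any member, and it was left out on both arrays.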

How the data were processed

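Each array was read as the scanner software's spot table. The deposited intensity of a spot is the processed signal, which Agilent Feature Extraction 10.7.3.1 had corrected for background, per the file headers. The authors' deposited table of log2 values, whose normalization is not stated, served as an alternative; its medians equal each other (6.31 on both arrays), so it was scaled between arrays. The spot flags for background and outliers are the scanner software's, as deposited.

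Control spots and spots flagged as outliers on either array were left out, spots of a probe were averaged, and log2 signals were centred on the 75th percentile of that array's gene probes. A gene took its brightest probe among those well above background on at least 1 array. Where only 1 array was above background, the brighter value was set against the higher of the dim value and the lowest signal among probes above background on the dim array, which gives "at least" folds. Calls were made at 2-fold, with 1.5-fold and 4-fold as alternatives. With 1 array per passage no test was run, and the number of arrays limits the precision. Both arrays lay on 1 slide and were scanned in 1 run, per the file headers. Normexp (offset 50), quantile and cyclic loess settings used limma 3.58.1 in R 4.3.3, and other steps used pandas 2.3.3 in Python 3.11.15. The steps were tested on simulated data.

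Named with their values are members past 2-fold, the 4 largest differences of each class, and a core list of well-known chaperones; other members named with a value, and the partner genes, were chosen after their values were seen. The members and all lists were chosen with earlier results of these data known. Probe positions are those of the files (mm9) and promoter sequences come from RefSeq (GRCm38.p6).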

Additional observations from a re-analysis of the deposited data

How the results depend on the processing

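The median difference of the chaperone genes, 0.057 as reported, was -0.040 with cyclic loess, -0.16 with spike-in scaling and -0.25 with median centring, where the median of all measured genes moved to -0.021, -0.15 and -0.24. It ranged from -0.0073 to 0.073 under the other 8 alternatives in processing. The count at least 2-fold higher was 0 under all 11 alternatives in processing and 5 at a threshold of 1.5-fold. The count at least 2-fold lower was 1, Dnajc7, which passed under all 11. It was 2 with median centring and 2 with spike-in scaling, which add Dnajb2, and 2 with outlier spots kept, which adds Dnajb3 by its non-uniform spot. It was 3 at 1.5-fold and 0 at 4-fold. No difference of a member past 2-fold reversed. Spike-in scaling and median centring each shift all genes by 1 constant, so all 75 members moved by more than the spot error of 0.081. Of the single members, 38 moved by more than the spot error with cyclic loess and 18 when probes of a gene were averaged. No paired analysis was possible because each passage has 1 array. For the same reason no replicate could be left out and slide could not be a block. Members not well above background on either array have no measured difference.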
